A study of Homo sapiens with 6 samples.

Results

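The dynein heavy chains of C4-2 cells were followed here, with DNAH5 first among them. The list held 10 symbols: DNAH5, DNAH1, DNAH2, DNAH3, DNAH6, DNAH7, DNAH10 and DNAH14, which are built into the arms of motile cilia, and DYNC1H1 and DYNC2H1, the heavy chains of the 2 cytoplasmic dyneins. All 10 were found by Ensembl identifier among the 62696 gene rows of the count tables, and 8 of them were among the 15783 genes with enough reads to be tested. The members were selected on the counts of this series, with the difference of these genes between CDK12 knockout and vector libraries already known. The size of that difference is therefore given as a description, with no test of its own. C4-2 cells are an epithelial-like line of human prostate cancer that grows despite castration (CRPC). The series asked what losing CDK12, a kinase that phosphorylates RNA polymerase II, does to it. Bulk RNA was sequenced in 3 libraries of untreated cells carrying the vector (genotype WT) and 3 libraries of untreated cells edited with CRISPR-Cas9 (genotype CDK12 knockout), all grown in RPMI medium with serum.

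Dyneins are motors that walk along microtubules towards their minus end. Each heavy chain carries a ring of AAA+ domains that binds and splits ATP, a stalk that holds the microtubule and a tail to which the smaller chains bind. Axonemal heavy chains bend cilia and flagella: DNAH5 is a heavy chain of the outer arms, and its loss is a leading cause of primary ciliary dyskinesia, while DNAH1, DNAH2, DNAH3, DNAH6, DNAH7 and DNAH10 belong to the inner arms. DYNC1H1 carries vesicles, organelles and chromosomes through the cytoplasm, and DYNC2H1 returns intraflagellar transport trains from the tip of the cilium to its base. Prostate luminal cells carry no motile cilia.

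What makes these genes a family is best seen at the P-loop of the first AAA+ domain, which holds the phosphates of ATP. A coding stretch for this loop was found in all 10 heavy chains and in the other 5 with counts (DNAH8, DNAH9, DNAH11, DNAH12 and DNAH17). The 24 bases that encode it, searched for by the residues they encode and shown in capitals, are set out with 12 coding bases to either side for the chains on which the results turn. DNAH8, a close relative of DNAH5 that is not on the list, is added for comparison. The bases are from GENCODE 29 transcripts on GRCh38, 5′ to 3′ on the coding strand.
DNAH5: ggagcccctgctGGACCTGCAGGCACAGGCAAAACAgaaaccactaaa
DNAH8: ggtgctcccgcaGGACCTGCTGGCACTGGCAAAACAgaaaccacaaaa
DNAH3: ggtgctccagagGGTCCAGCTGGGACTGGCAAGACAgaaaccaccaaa
DNAH14: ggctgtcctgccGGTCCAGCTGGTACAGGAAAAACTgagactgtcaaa
DYNC1H1: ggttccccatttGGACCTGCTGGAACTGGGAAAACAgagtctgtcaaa
DYNC2H1: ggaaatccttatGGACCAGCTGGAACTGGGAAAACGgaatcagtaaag
The DNAH5 stretch lies in exon 36 of 79, at chr5:13830685-13830732 on the minus strand. That of DNAH8 lies in exon 44 at chr6:38862323-38862370 (plus strand), that of DNAH3 in exon 30 at chr16:21049937-21049984 (minus) and that of DNAH14 in exon 28 at chr1:225144569-225144616 (plus). The DYNC2H1 stretch lies in exon 33 at chr11:103170192-103170239 (plus). In DYNC1H1 the stretch is split by an intron after its start in exon 27, between chr14:102006158 and 102007042 (plus). Within the capitals DNAH5 differed from DNAH8 at 2 bases, from DYNC1H1 at 4 and from DNAH3, DNAH14 and DYNC2H1 at 6 each. Its difference from the other 9 listed chains was 3 to 7 bases, so the chains share, by the search itself, the residues encoded and differ in the bases that encode them.

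All 10 are large genes. Their longest annotated transcripts ran from 12394 bases in DNAH3 and DNAH7 to 20003 bases in DYNC1H1, and the genes spanned 84.2 kb (DNAH1) to 503 kb (DNAH14). DNAH5 (ENSG00000039139.11) spans 254 kb at 13690331 to 13944543 on the minus strand of chromosome 5, with a longest transcript of 15633 bases. The 250 bases before the start of DNAH5 and DNAH1 are shown because both genes are axonemal and their counts behaved differently, and because RFX factors, which switch on cilia genes through the X-box, were among the genes measured. They come from RefSeq on GRCh38.p14 and lie at chr5:13944689-13944938 (minus strand) and chr3:52316069-52316318 (plus strand). Capitals mark the X-box half-site GTTGCC, searched on both strands.
DNAH5: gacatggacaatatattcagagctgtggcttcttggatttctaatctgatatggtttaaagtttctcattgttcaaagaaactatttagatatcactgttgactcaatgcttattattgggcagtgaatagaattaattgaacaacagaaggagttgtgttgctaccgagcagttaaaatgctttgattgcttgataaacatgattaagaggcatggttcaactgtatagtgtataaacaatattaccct
DNAH1: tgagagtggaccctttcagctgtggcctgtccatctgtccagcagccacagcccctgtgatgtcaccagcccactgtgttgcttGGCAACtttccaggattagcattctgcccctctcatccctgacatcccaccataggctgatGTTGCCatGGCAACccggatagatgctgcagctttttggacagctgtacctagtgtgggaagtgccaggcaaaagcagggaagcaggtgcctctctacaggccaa
DNAH1 held 3 matches to the half-site, 2 of them facing each other across 2 bases, and DNAH5 held 0. DNAH14, with more reads in the knockout libraries, and DNAH8, with fewer, also held 0. Any link between matches and counts was not tested. Of the 9 listed heavy chains with a promoter entry, 5 held at least 1 match (DNAH1, DNAH2, DNAH6, DNAH10 and DYNC2H1), where 10.2% of all 35116 promoter entries of this length did. The chains are counted by gene over all their entries, and the background by entry. Of the other heavy chains, 1 of 4 with an entry held a match. The forkhead motif TGTTTAC, which is no part of GTTGCC, was in 0 of the 9 and in 2.98% of all entries. A match is a run of letters and not a binding site.

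Total reads ranged from 24660798 to 30732841 per library, and reads assigned to genes from 16617644 to 21590817. Knockout library 2 stood apart: across genes its log2 CPM (CPM being counts scaled to a common library size) had r of 0.916 to 0.9499 with the other 5, whose r among themselves was 0.977 or more. The fold changes of the heavy chains are therefore given with and without it. CDK12 RNA was at 55.1 ± 6.35 CPM (SD, n = 3) with the vector and at 58.1 ± 2.35 CPM (SD, n = 3) after the knockout; reads summed over the gene do not test an edit within it. Nothing in the labels ties the 3 libraries of a line to separate cultures or clones, so the errors may be technical only, and any other difference between the 2 lines cannot be told apart from the loss of CDK12. In bulk RNA, fewer cells with a transcript and less of it per cell cannot be told apart. Luminal prostate markers were present (10 of 10 tested, summed level 9549 to 9720 CPM in the vector and 7939 to 10867 CPM in the knockout libraries), and leukocyte markers were not (0 of 5 tested). In edgeR 1 of the 10 luminal markers was called lower with all 6 libraries, SLC45A3, and 5 were without knockout library 2, with 0 higher in either. Of all tested genes 0.177% were called lower with all 6 libraries and 8.88% without knockout library 2. Basal, fibroblast and endothelial markers passed the filter in 1 of 4, 2 of 5 and 1 of 3 genes, with TP63, DCN and PECAM1 at 0 counts in all 6 libraries. Of these, edgeR called COL1A2 lower and VWF higher without knockout library 2 and neither with all 6. With all 6 libraries, DESeq2 called VWF and 1 fibroblast marker, and limma-voom called 1 fibroblast marker. The part of any of these markers in the results was not tested. Of 8 markers of multiciliated cells 3 passed the filter. The summed level of all 8 was 75.0 to 92.0 CPM in the vector and 73.9 to 94.7 CPM in the knockout libraries, with SNTN, TPPP3 and CIMIP1 at 0 counts in all 6. Of the 3 that passed, RSPH1 averaged 0.902 CPM in the vector and 0.978 CPM in the knockout libraries. The sum therefore came mainly from CAPS and CCDC78.

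DNAH5, per length the most abundant axonemal heavy chain of the vector cells in the unstranded counts, was 2.53-fold lower after the knockout. Its reads numbered 299, 266 and 270 with the vector and 127, 76 and 135 after the knockout, in the order of the library numbers. Scaled between libraries, these were 15.3, 14.9 and 14.8 CPM against 5.995, 4.78 and 6.98 CPM. The 2 groups lay far apart, with the vector libraries close together and knockout library 2 the lowest. The log2 fold change, knockout against vector, was -1.34 ± 0.18 (SE). Without knockout library 2 it was -1.22 ± 0.15.

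DNAH3, an inner arm chain, also had few reads in the knockout. Its counts were 22, 18 and 10 in the vector libraries and 2, 1 and 7 in the knockout libraries, or 1.13, 1.01 and 0.549 CPM against 0.0944, 0.0629 and 0.362 CPM. The groups did not overlap, but vector library 3 and knockout library 3 were the closest to each other. Its log2 fold change was -2.30 ± 0.65 (SE) with all libraries, -1.98 ± 0.67 without knockout library 2 and -3.37 without knockout library 3. At 10 reads over the knockout libraries the size of this difference is poorly fixed.

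DNAH14 went the other way. This axonemal heavy chain, whose place in the cilium is less well known, had 124, 152 and 134 reads in the vector and 224, 207 and 204 in the knockout libraries. Its levels were 6.35, 8.51 and 7.36 CPM against 10.6, 13.0 and 10.5 CPM, so every knockout library lay above every vector library. Knockout library 2, the lowest for DNAH5, was the highest for DNAH14. The log2 fold change was 0.62 ± 0.18 (SE), and 0.51 ± 0.16 without that library.

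Among the remaining inner arm chains DNAH7 alone had groups that did not overlap. DNAH1 had 3.94, 4.25 and 5.11 CPM in the vector and 4.48, 1.76 and 3.21 CPM in the knockout libraries. The groups overlapped, with knockout library 1 inside the vector range and knockout library 2 the lowest. Its log2 fold change was -0.48 ± 0.34 (SE), and -0.21 ± 0.23 without knockout library 2. DNAH2 had 1.54, 1.85 and 2.42 CPM against 2.45, 2.20 and 2.84 CPM, and only knockout library 2 fell inside the vector range; the log2 fold change was 0.37 ± 0.27, and 0.45 ± 0.29 without that library. DNAH10 had 7, 3 and 15 reads in the vector and 14, 8 and 17 in the knockout libraries, with overlapping groups and a log2 fold change of 0.60 ± 0.59, and 0.76 ± 0.61 without knockout library 2. Leaving out vector library 3 made the DNAH10 value 1.34. DNAH6 (3 to 6 reads in the vector, 5 to 9 in the knockout libraries) and DNAH7 (7 to 9 against 8 to 14 reads) did not pass the filter, and no fold change is given for them. DNAH7 stood at 0.409, 0.392 and 0.494 CPM in the vector and 0.661, 0.503 and 0.517 CPM in the knockout libraries, without overlap but within a few reads.

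**Figure D1:**
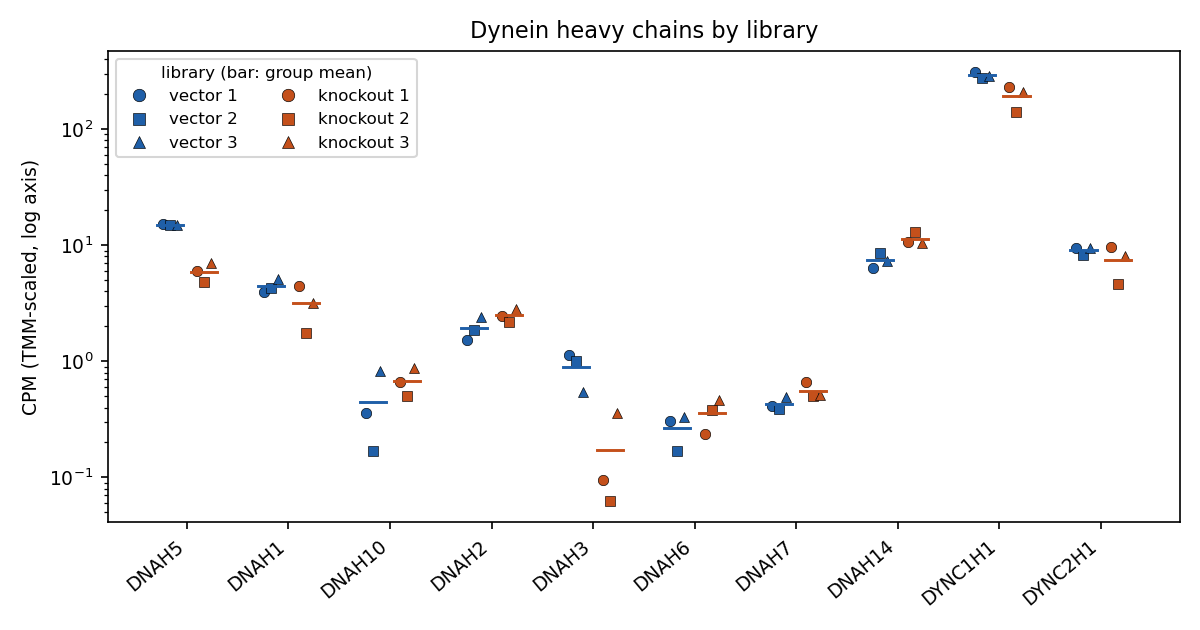
Level of each listed heavy chain in every library, in CPM on a log axis; blue symbols are vector libraries, orange symbols knockout libraries, the symbol gives the library number and the bar the group mean. DNAH5 sits at 14.8 to 15.3 CPM in the vector and 4.78 to 6.98 CPM in the knockout libraries, and DNAH14 is higher in all 3 knockout libraries.

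The cytoplasmic heavy chains differed from each other: DYNC1H1 was the most abundant of all and lower in each knockout library, and DYNC2H1 had overlapping groups. DYNC1H1 had 6037, 4922 and 5245 reads in the vector and 4895, 2243 and 3994 in the knockout libraries, or 309, 276 and 288 CPM against 231, 141 and 207 CPM. All knockout libraries lay below all vector libraries, with knockout library 2 far below the rest. The log2 fold change was -0.59 ± 0.20 (SE), and -0.42 ± 0.07 without that library. DYNC2H1 had 9.47, 8.23 and 9.39 CPM against 9.68, 4.66 and 8.12 CPM. Knockout library 1 was the highest and knockout library 2 the lowest of all 6 for this gene, so the groups overlapped. Its log2 fold change was -0.27 ± 0.27 (SE), and -0.03 ± 0.16 without knockout library 2.

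Over the family, 5 of the 10 listed chains had groups that did not overlap (DNAH5, DNAH3, DNAH7, DNAH14 and DYNC1H1), where 39.4% of all tested genes did; DNAH7 is not among the tested genes. In edgeR's quasi-likelihood fit of all genes, 1 of the 8 chains tested passed the threshold with all 6 libraries, DNAH5, which was lower, and 0 were higher. The background was 94 of 15783 genes (0.596%), with 0.177% called lower and 0.418% called higher. Without knockout library 2, 3 chains were called lower (DNAH5, DNAH3 and DYNC1H1) and 1 higher (DNAH14), against 19.1% of 16339 genes called, 8.88% lower and 10.2% higher. Because the list was made with this contrast known, nothing is read from these counts. The DNAH5 call was lost when any 1 of the other 5 libraries was left out in turn, with log2 fold changes from -1.47 to -1.33. The median log2 fold change of the 8 chains was -0.37, and -0.12 without knockout library 2, while the median of all tested genes was 0.00 and -0.01.

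**Figure D2:**
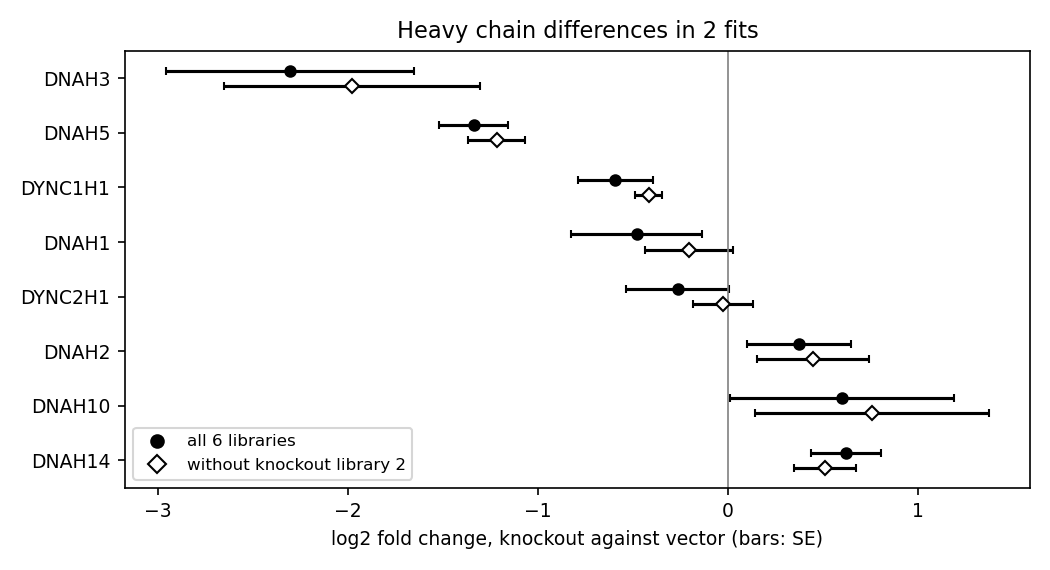
Log2 fold change of the 8 tested heavy chains, knockout against vector; filled circles are the fit of all 6 libraries, open diamonds the fit without knockout library 2, and bars are SE. DNAH5 (-1.34 and -1.22) and DNAH14 (0.62 and 0.51) differ in sign, and DYNC2H1 lies near 0 without knockout library 2.

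Long transcripts as a group were lower in the knockout libraries, and the heavy chains were read beside them. Of the tested genes 537 had a longest transcript of at least 10 kb. Their median log2 fold change was -0.28, with 80.1% of them below 0, and became -0.17 when knockout library 2 was left out. By library, the median shift of these genes from the vector mean was -0.16 in knockout library 1, -0.54 in knockout library 2 and -0.16 in knockout library 3. DNAH5 lay below those medians in each of the 3, at -1.31, -1.63 and -1.09 on the log2 CPM scale. Of the 537 genes 12 had a log2 fold change at or below that of DNAH5, and 11 did without knockout library 2; this rank uses the value on which DNAH5 was selected and supports nothing further. DNAH14 lay above the medians in each, at 0.52, 0.82 and 0.51. DNAH1 shifted by 0.02, -1.27 and -0.45, and DYNC2H1 by 0.10, -0.94 and -0.15, so both were far from 0 mainly in knockout library 2. DYNC1H1 shifted by -0.33, -1.04 and -0.49. With a correction of every library for its dependence on transcript length and on GC content, the log2 fold change of DNAH5 was -1.02, that of DNAH14 was 1.00 and that of DYNC2H1 changed sign to 0.04.

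**Figure D3:**
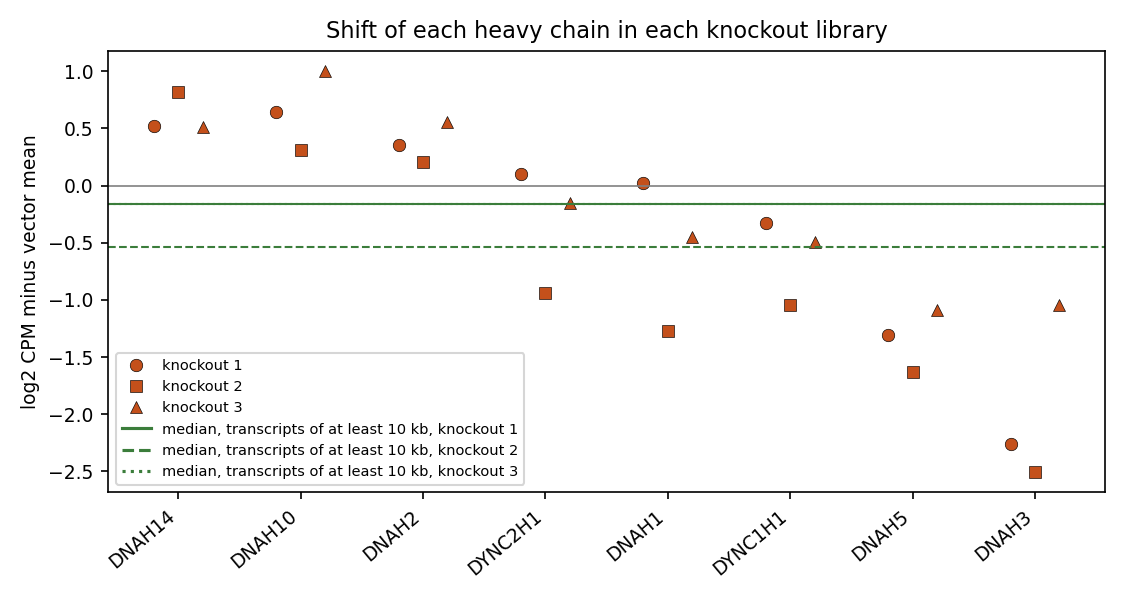
Shift of each tested heavy chain in each knockout library, as log2 CPM minus the mean of the vector libraries. Green lines give the median shift of the 537 genes with a transcript of at least 10 kb in knockout libraries 1 (solid), 2 (dashed) and 3 (dotted); the lines of libraries 1 and 3 coincide at -0.16. DNAH5 lies below and DNAH14 above its library's line in all 3.

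Per length, the order of the heavy chains in the unstranded counts changed at the top of the axonemal group. In vector cells DYNC1H1 led with 7.89 ± 0.457 CPM per kb of merged exons (SD, n = 3), followed by DNAH5 with 0.911 ± 0.0154, DYNC2H1 with 0.602 ± 0.0463, DNAH14 with 0.376 ± 0.0550 and DNAH1 with 0.320 ± 0.0436 CPM per kb. The vector ranges of DNAH14 and DNAH1 overlapped, and the other neighbours in this top order did not. DNAH2 (0.112 CPM per kb) and DNAH3 (0.0598) followed, then DNAH10 (0.0269), DNAH7 (0.0203) and DNAH6 (0.0198), whose ranges overlapped from DNAH3 down. In knockout cells DNAH14 stood at 0.578 ± 0.0722 CPM per kb and DNAH5 at 0.359 ± 0.0669, so DNAH14 lay above DNAH5 in all 3 knockout libraries and below it in all 3 vector libraries. These levels depend on the exons counted. Per kb of the longest transcript, DYNC1H1 was at 14.5 CPM (its merged exons are 36852 bases long), DNAH14 at 0.538 and DNAH7 at 0.0348 CPM. DNAH14 then overlapped DYNC2H1 and no longer DNAH1, and DNAH7 stood above DNAH10, with overlapping ranges, and apart from DNAH3.

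Summed over all 13 axonemal heavy chains, the reads were 678, 667 and 677 in the vector and 607, 422 and 581 in the knockout libraries. DNAH5 made up 44.4%, 40.4% and 40.1% of their level per length in the vector and 21.7%, 19.4% and 24.2% in the knockout libraries. DNAH14 made up 15.4%, 19.3% and 16.7% against 32.1%, 44.2% and 30.5%. In the unstranded counts the leading axonemal chain was thus DNAH5 in every vector library and DNAH14 in every knockout library. With the 2 stranded columns of the files summed, DNAH11 had 13622% of its 18 unstranded reads and DNAH17 362% of its 173. That sum can include reads of other genes. These read sums, shares and this order therefore hold for the unstranded counts only. The level per kb of DYNC1H1 was 12.5 to 13.6 times that of DYNC2H1 in the vector and 9.73 to 12.3 times in the knockout libraries.

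**Figure D4:**
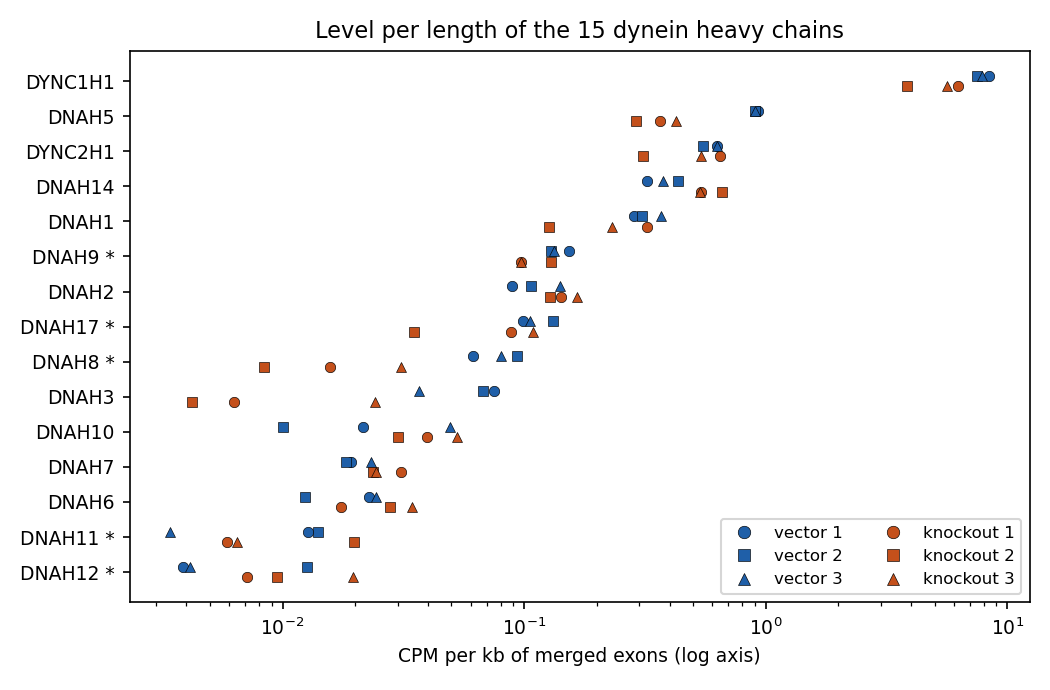
Level of the 15 dynein heavy chains with counts, in CPM per kb of merged exons on a log axis, ordered by their vector mean; blue symbols are vector, orange symbols knockout libraries, and an asterisk marks chains that are not on the list. DYNC1H1 leads at 7.89 CPM per kb in the vector libraries, and DNAH14 passes DNAH5 in the knockout libraries.

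Reads shared with genes on the opposite strand touch some of these values, since the unstranded counts do not separate strands. Exons of DNAH10 overlap those of CCDC92 (975 bases, 5.83% of the DNAH10 exons) and DNAH10OS (1800 bases, 10.8%). DYNC1H1 shares 1033 exon bases (2.80%) with AL118558.1, DNAH5 shares 207 bases (1.26%) with AC016576.1 and DNAH3 shares 84 bases with AC008551.1. STAR's unstranded counts leave out reads that fall in 2 genes. With the 2 stranded columns summed instead, DYNC1H1 had 142% and DNAH10 145% of their unstranded reads, DNAH5 had 100.3% and DNAH3 103.3%. The log2 fold change of DYNC1H1 then became -0.31 and that of DNAH10 became 1.01, while DNAH5 was at -1.35. The 2 stranded columns of a library held nearly equal reads (ratio 1.02 to 1.04), so they do not separate the strands either. Their sum can include reads of the gene on the other strand. The summed values of DYNC1H1 and DNAH10 may therefore not be those of the heavy chains alone.

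The other 5 axonemal heavy chains with counts were mostly scarce in the unstranded counts. DNAH8, the outer arm relative of DNAH5 whose P-loop is shown beside it, had 18, 25 and 22 reads in the vector and 5, 2 and 9 in the knockout libraries, with no overlap. Its log2 fold change was -2.04 ± 0.50 (SE; edgeR adjusted p = 0.142). Without knockout library 2 DNAH8 was lower, at -1.74 ± 0.54, with an edgeR adjusted p of 0.0280 that ranged from 0.0210 to 0.480 over the alternatives run. DNAH9, an outer arm chain of the cilium tip, had 39 to 51 reads against 32 to 35, and a log2 fold change of -0.36 ± 0.26 at an edgeR adjusted p of 0.384, and -0.51 ± 0.30 without knockout library 2. DNAH17 (31 to 38 against 9 to 34 reads) had -0.52 ± 0.42 at an edgeR adjusted p of 0.445, and -0.19 ± 0.33 without knockout library 2. DNAH11 and DNAH12 had at most 5 reads in any library and were not tested.

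The rest of the dynein pathway was followed in 11 lists of 141 genes, all of them matched; the 5 heavy chains just described are 1 of these lists. Of these, 111 were tested with all 6 libraries and 0 passed the threshold in edgeR, with 25 at an unadjusted p under 0.05; DESeq2 called 4 and limma-voom 0. Without knockout library 2, 10 of 115 (8.70%) were lower and 14 (12.2%) higher in edgeR, beside 8.88% and 10.2% of all genes. The median log2 fold change of the 111 was -0.08, and that of the tested genes without knockout library 2 was -0.04. The genes named below as lower or higher are those of the fit without knockout library 2. None of them passed in edgeR with all 6 libraries after the filter, where SPEF2 was too scarce to test. With all 6 libraries, DESeq2 and edgeR without a filter each called ODAD3, BICDL2 and IFT43. PIH1D1, DYNLL2, DCTN1, DCTN6, RILP, DYNC2I2, IFT46, KIF3B and RFX3 were called in no other alternative, including that fit with length and GC correction.

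Of 48 genes that build or assemble the motile cilium, 21 were too scarce to test with all 6 libraries, and edgeR called 0 of the 27 tested. Without knockout library 2, 18 were too scarce. There 3.33% of the 30 tested were lower and 13.3% higher, beside 8.88% and 10.2% of all genes. Of 10 axonemal intermediate and light chains 8 did not pass the filter with all libraries, NME8 and DYNLT2 among them with 0 counts in every library. For the light chain DNAL4 the log2 fold change was 0.56 ± 0.25 with all 6 libraries, at an edgeR adjusted p of 0.236, and 0.25 ± 0.13 without knockout library 2. Of 22 factors that assemble axonemal dyneins in the cytoplasm 17 were tested and 2 were higher, 0 lower. They were RUVBL1 (0.26 ± 0.06, log2 ± SE), an ATPase with many other complexes, and PIH1D1 (0.29 ± 0.07), its partner in the R2TP co-chaperone. Of 16 docking, ruler and radial spoke genes 10 were tested, with GAS8, a subunit of the nexin-dynein regulatory complex, lower (-0.42 ± 0.12) and ODAD3 and SPEF2 higher (1.01 ± 0.24 and 1.66 ± 0.51). SPEF2 was scarce, with 7, 6 and 7 reads in the vector and 26, 7 and 21 in the knockout libraries. It did not pass the filter with all 6 libraries, and in knockout library 2 it stood near the vector level. ODAD3 docks outer arms. Its sign reversed in 1 of 16 alternatives: with the stranded columns summed it was -0.32 over all 6 libraries. That sum can take in reads of genes on the other strand, as for DNAH10 above, and may not measure ODAD3 alone. The values of GAS8 and RUVBL1 over all 6 libraries, -0.60 and 0.35, were -0.20 and 0.083 in the same sum.

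Of 40 tested partners of cytoplasmic dynein 1, 0 were called in edgeR with all 6 libraries after the filter. Without knockout library 2, 5 were lower (12.5%) and 6 higher (15%), beside 8.88% and 10.2% of all genes. Of its 9 tested smaller subunits 2 were lower and 1 higher. DYNC1LI2, a light intermediate chain that links the motor to cargo adaptors, had 49.8, 38.5 and 49.6 CPM in the vector and 28.3, 7.99 and 26.0 CPM in the knockout libraries. It fell by 0.77 ± 0.11 on the log2 scale. Over all 6 libraries DYNC1LI2 was at -1.14, and at -0.45 with the stranded columns summed. The light chain DYNLL1 was higher (0.30 ± 0.06) and its close relative DYNLL2 lower (-0.21 ± 0.06), though the latter was 0.01 with all 6 libraries. Among the 12 subunits of dynactin, the activator of dynein 1, DCTN1 was lower (-0.23 ± 0.07) and DCTN3 (0.30 ± 0.08) and DCTN6 (0.33 ± 0.11) were higher. Of 19 regulators and cargo adaptors 2 were lower and 3 higher. Among them were NUMA1, which anchors dynein at the spindle poles (-0.24 ± 0.06), and the adaptors BICDL2 (0.63 ± 0.10) and RILP (0.37 ± 0.11). Over all 6 libraries NUMA1 was at -0.51, and at -0.22 with the stranded columns summed.

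Of 32 tested genes of cilium transport beside DYNC2H1, 2 were lower (6.25%) and 3 higher (9.38%) without knockout library 2, beside the same shares of all genes. In edgeR with all 6 libraries after the filter 0 were called. Of 3 tested smaller subunits of dynein 2, the intermediate chain DYNC2I2 was higher (0.36 ± 0.07). Of 24 subunits of the intraflagellar transport trains, TTC21B was lower (-0.33 ± 0.09) and IFT43 (0.75 ± 0.11) and IFT46 (0.50 ± 0.16) were higher. IFT43 had 16.2, 16.4 and 17.0 CPM in the vector and 25.4, 48.1 and 30.6 CPM in the knockout libraries, with knockout library 2 the highest. Of 5 kinesin-2 genes, which drive the trains outwards with DYNC2H1 driving them back, KIF3B was lower (-0.25 ± 0.08). Of 14 transcription factors of cilium formation 10 were tested: RFX2 was higher (0.51 ± 0.16) and RFX3 lower (-0.65 ± 0.22), while FOXJ1, the master factor of motile cilia, was too scarce, with a mean of 0.194 CPM in the vector and 0.441 CPM in the knockout libraries.

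**Figure D5:**
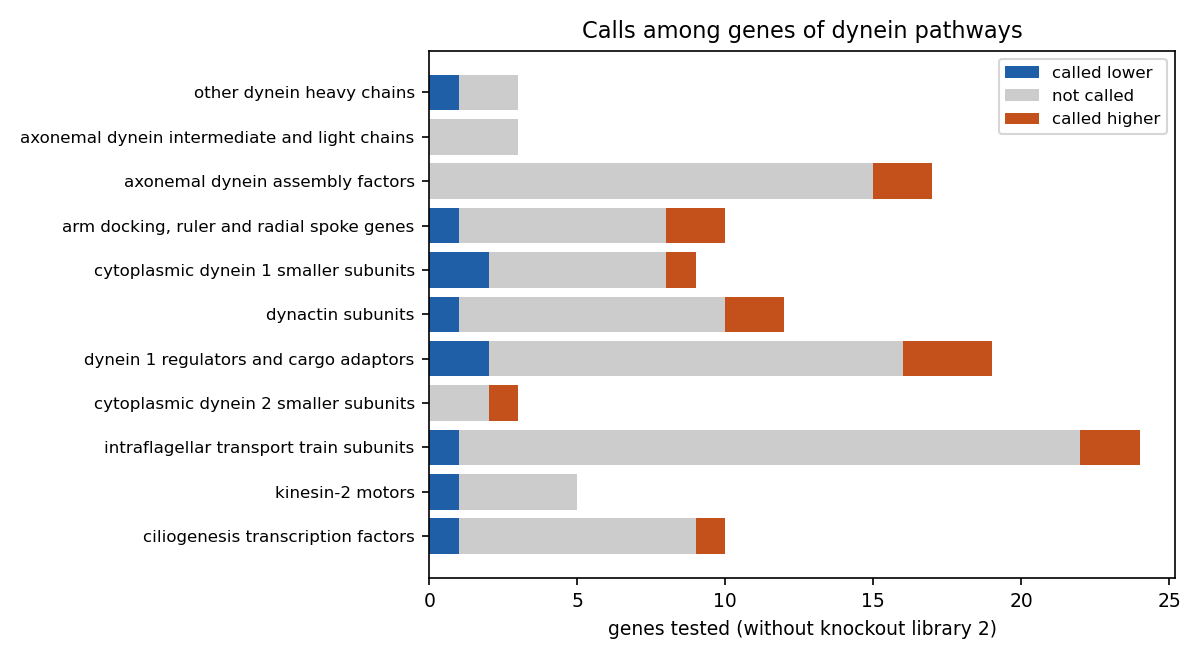
Number of genes called lower (blue), not called (grey) and called higher (orange) in each of the 11 lists, in edgeR's fit without knockout library 2; the x axis counts tested genes. Calls lie on both sides, 10 lower and 14 higher of 115, and edgeR made 0 with all 6 libraries after the filter.

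DNAH5 lies in a stretch of chromosome 5 with few expressed genes. The nearest tested protein-coding genes were TRIO, 199 kb away, and OTULINL, 637 kb away on the side of higher coordinates, and DAP and MARCHF6, 2929 and 3250 kb away on the other side. TRIO had a log2 fold change of -0.71 ± 0.28 and OTULINL one of -0.82 ± 0.18, with edgeR adjusted p of 0.221 and 0.115. DAP had -0.20 ± 0.11 and MARCHF6, a ubiquitin ligase of the endoplasmic reticulum, 0.01 ± 0.16, with edgeR adjusted p of 0.294 and 0.984. Without knockout library 2, TRIO (-0.44), OTULINL (-0.65) and DAP (-0.20) were called lower in edgeR, and MARCHF6 was not called. OTULINL had 61.8 to 62.7 CPM in the vector and 26.0 to 40.9 CPM in the knockout libraries, all lower.

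The genes whose log2 CPM followed that of DNAH5 most closely over the 6 libraries were PTCH1 (Pearson r = 0.997), SLC25A16 (0.995), TBC1D16 (0.993), RDH11 (0.990) and FGD4 (0.990). The ranking took in 9761 protein-coding genes, those averaging 5 CPM or more. Such values were common: 212 of them had an r of at least 0.95 and 638 of at least 0.9. All 5 had groups that did not overlap, so these values describe mainly the step between the 2 groups and rest on the same libraries as DNAH5. PTCH1, the receptor of Hedgehog ligands, had 62.4, 56.5 and 60.2 CPM in the vector and 26.8, 20.4 and 28.1 CPM in the knockout libraries. Its log2 fold change was -1.25, beside -1.34 for DNAH5. FGD4 had -1.20, RDH11 -0.75, SLC25A16 -0.59 and TBC1D16 -0.30 on the same scale. Without knockout library 2 the values were -1.13 for PTCH1, -1.05 for FGD4, -0.64 for RDH11, -0.52 for SLC25A16 and -0.29 for TBC1D16, beside -1.22 for DNAH5. Their patterns were thus alike over libraries. In size PTCH1 and FGD4 were close to DNAH5, and RDH11, SLC25A16 and TBC1D16 were smaller.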

How the data were processed

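Per the submitters' processing notes, FastQC, STAR and GRCh38 were used; which annotation release was counted is not given in the sources used here. The deposited files hold whole-number read counts per gene, not normalised, in 1 unstranded and 2 stranded columns. The unstranded counts of 3 vector and 3 knockout libraries were used, and the 4 summary rows, with 29.7% to 32.6% of the reads of a library, stayed out. The members and lists were chosen with earlier results of these data known. The counts of all genes went through edgeR 4.0.16 in R 4.3.3: low genes removed with filterByExpr, TMM scaling, then the robust quasi-likelihood test without a block, Benjamini-Hochberg adjustment and a threshold of 0.05. The code was tested on simulated data. Alternatives were DESeq2 1.42.0 and voom of limma 3.58.1, beside other scaling factors and filters, the summed stranded columns, leaving out each library and splines in transcript length and GC content (5 degrees of freedom each). SE is the log2 fold change over the square root of F. CPM are counts scaled with TMM factors; a prior count of 2 went into log2 CPM. At these depths counting error alone limits chains with fewer than about 10 reads. Lengths and coordinates are from GENCODE 29, perhaps not the release behind the counts; it matched 15250 of 15783 tested genes. No 2 files of a group agreed within sampling noise (chi-square per degree of freedom at least 3.27). Named genes are all listed chains, the other heavy chains with counts, up to 3 called genes of each list (or the one with the smallest p), the 2 nearest tested genes on each side of DNAH5 and the 5 most like it over the libraries.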

Additional observations from a re-analysis of the deposited data

How the results depend on the processing

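The log2 fold change of DNAH5, a gene selected on this contrast, was -1.47 to -1.02 over the 16 alternatives, given as a description. With the length and GC correction it was -1.02, and -1.04 when knockout library 2 was also left out, a combination chosen after seeing the data. With each library left out in turn it ranged from -1.47 to -1.22. Counts of all genes called were 94, 980 with DESeq2, 363 without a filter, 163 with the length and GC correction, 3174 with that correction without knockout library 2, 12 at an adjusted p of 0.01 and 4 to 3123 with 1 library left out; the largest is without knockout library 2. Of the heavy chains 1 was called, 2 with DESeq2, 3 with the correction without knockout library 2, 0 at an adjusted p of 0.01 and 0 to 4 with 1 library left out. Of the pathway genes 0 were called, 4 with DESeq2, 3 without a filter, 22 with the correction without knockout library 2 and 0 to 24 with 1 library left out. The median of the heavy chains, -0.37, was 0.028 with the correction without knockout library 2, and -0.62 to -0.12 with 1 library left out. Signs changed for DYNC2H1 (0.045 with the correction, 0.15 also without knockout library 2) and ODAD3 (-0.32 with summed stranded columns). DYNLL2 was -0.0063 with limma-voom, -0.013 with the replicate block, -0.011 with summed stranded columns, -0.21 to 0.11 with 1 library left out and -0.12 with the correction without knockout library 2. MARCHF6 was -0.0078 with limma-voom, -0.0066 with the replicate block, -0.014 with summed stranded columns and -0.069 to 0.14 with 1 library left out. The cause of these changes was not tested.

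Same-numbered vector and knockout libraries had correlations of their deviations of 0.135, 0.194 and 0.0841. Differently numbered libraries had -0.193 to 0.0762, so each same-numbered value was the highest for both of its libraries. The labels do not say that the numbers mark pairs, and the main fit used no block. Whether they do was not tested. With the replicate block 5 genes were called, 0 of them heavy chains, and DNAH5 was at -1.35.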

Other observations

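The scarce heavy chains DNAH11 and DNAH17, which are not on the list, depend most on how overlapping genes are counted. DNAH11 had 18 reads over all 6 libraries in the unstranded column, and the 2 stranded columns together held 13622% of that. For DNAH17, with 173 reads, the stranded columns held 362%. The levels of these 2 chains given above are those of the unstranded column, as are the order and the shares of the axonemal chains.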
